A study of Rattus norvegicus with 4 samples.

Results

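rno-miR-212-3p and rno-miR-132-3p, here miR-212-3p and miR-132-3p, are rat microRNAs (miRNAs), short RNAs that bind messenger RNAs and lower their output. They were followed across 4 Agilent miRNA arrays of RNA from serum exosomes, the vesicles that cells shed into blood. The pair was taken by name from the array's annotation: 2 of its 719 rat miRNAs, read by 4 of its 1730 probes and 40 of its 14380 miRNA spots. It was selected on the signal of miR-212-3p, which lay above the uninjected array on both day 49 arrays, so its differences are described here and not tested.

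The samples came from male rats, spelled "baffolo" in the series' design text. The naive group (day 0) was not injected. The light (day 35), moderate (day 49) and severe (day 49) groups bore hepatocellular carcinoma (HCC), a liver cancer. The labels' protocol has an unnamed HCC cell line injected, whereas the design text speaks of HCC exosomes given in 1 dose. The words light, moderate and severe come from the sample titles, with no definition of grade. Each group has 1 array; the design text mentions 4 experiments per time in different rats, and the labels do not say whether RNA was pooled. No replicate error or p-value exists for this design: every difference is between 2 arrays, and disease and day change together in each comparison with naive. Errors written with ± are standard errors (SE) between spots within 1 array, and say nothing of the spread between rats. In serum, fewer vesicles from a cell type and less of a miRNA per vesicle cannot be told apart.

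Both miRNAs come from neighbouring genes that are transcribed together. CREB, a transcription factor activated by cyclic AMP and calcium signals, drives the locus in neurons, where the pair rises with activity and with brain-derived neurotrophic factor. The pair is also known to be induced in endothelial cells by growth factors and in monocytes by inflammatory stimuli. Among their known targets are Arhgap32 (p250GAP), a brake on dendrite growth, and Rasa1 (p120RasGAP), a brake on Ras signalling in vessels. CREB was not measured on these arrays, and no value below bears on it.

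The pair is shown by sequence because both miRNAs carry the same seed, the stretch that pairs with targets, and differ only beyond it. The mature sequences are from RefSeq (build GRCr8), 5′ to 3′, with the seed (bases 2 to 8) in capitals.

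miR-212-3p: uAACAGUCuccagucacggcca
miR-132-3p: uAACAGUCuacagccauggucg

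The sequences match at 17 of 22 positions, including the first 9. Counted from 1 at the 5′ end, with the base of miR-212-3p first and that of miR-132-3p last, the differences are C10A, U14C, C17U, C20U and A22G. Among the 641 of 719 array miRNAs found in the sequence table, 2 carry this seed, and they are these. On GRCr8 the mature forms lie on the plus strand of chromosome 10, at chr10:60521811-60521832 for miR-212-3p and chr10:60522091-60522112 for miR-132-3p, with 258 bases between them. Hic1, a transcriptional repressor gene, is the nearest listed protein-coding gene before the pair, and the long noncoding RNA gene LOC120095261 follows it. The other arm of each hairpin is on the array too, with a different seed.

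miR-212-5p: aCCUUGGCucuagacugcuuacug
miR-132-5p: aCCGUGGCuuucgauuguuacu

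Between the hairpins lies a copy of the palindromic CREB-binding motif TGACGTCA, which reads the same on both strands. It is printed because the locus is known for its control by CREB; the stretch is chr10:60521993-60522042 (GRCr8, plus strand), with the motif in capitals.

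Motif between the hairpins: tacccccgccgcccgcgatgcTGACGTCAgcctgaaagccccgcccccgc

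The motif starts 181 bases after miR-212-3p and ends 69 bases before miR-132-3p. It was found by searching the 300-base RefSeq promoter window of LOC120095261, which spans the miR-132 hairpin and holds 1 copy; the bases between miR-212-3p and the start of that window were not searched. Of 33469 promoter windows, 612 (1.83%) hold it. The match is a description of the letters, not of binding.

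miR-212-3p was detected by the scanner software on all 4 arrays, and miR-132-3p on none. The background-subtracted signal of miR-212-3p, averaged over spots and summed over its 2 probes, was 32.6 ± 1.30 intensity units on the naive array. It was 15.9 ± 0.812 on the light array. It reached 105 ± 0.909 units in moderate disease and 81.5 ± 1.21 in severe disease. Unscaled, the day 49 arrays were thus the brightest for this miRNA and the light array the dimmest, with no overlap of the spot errors. Arrays differ in overall brightness, so each signal was divided by a scaling value, the 75th percentile of signal among the 111 miRNAs seen on every array. It was 666 units on naive, 356 on light, 954 on moderate and 415 on severe. On the resulting log2 scale miR-212-3p stood at −4.35 on naive, −4.49 on light, −3.19 on moderate and −2.35 on severe. After scaling the severe array was the highest, and naive and light lay next to each other.

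The signal came mainly from 1 of the 2 probes. Probe A_26_P00001480 read 31.2 ± 0.956 on naive, with all 10 spots well above background and a range of 26.8 to 36.0. On the light array it read 17.2 ± 0.457 over 9 spots, of which 7 were well above background, from 14.7 to 19.1. On the moderate array its 9 spots read 83.3 to 88.9 with a mean of 86.2 ± 0.580. On the severe array its 9 spots read 61.3 to 71.3 with a mean of 67.1 ± 1.07. No spot of this probe used on 1 array fell within the range of another array, before scaling.

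The other probe, A_26_P00001479, was at background on naive and light, at 1.34 ± 0.885 and −1.28 ± 0.671, with 0 of 10 spots well above background on each. It read 18.5 ± 0.700 on the moderate array, where 10 of 10 spots were well above background, from 16.4 to 23.0. On the severe array it read 14.4 ± 0.566 over 8 spots, of which 1 was well above background while 8 of 8 were positive and significant by the software's own flag. Both probes were therefore brighter on the day 49 arrays than on the naive array. A fold for the dim probe has no measured denominator. Against the lowest signal that counted as well above background on naive (15.6 units), its scaled ratio was 0.828 for moderate, so no fold is given there, and on severe the probe was not well above background.

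**Figure D1:**
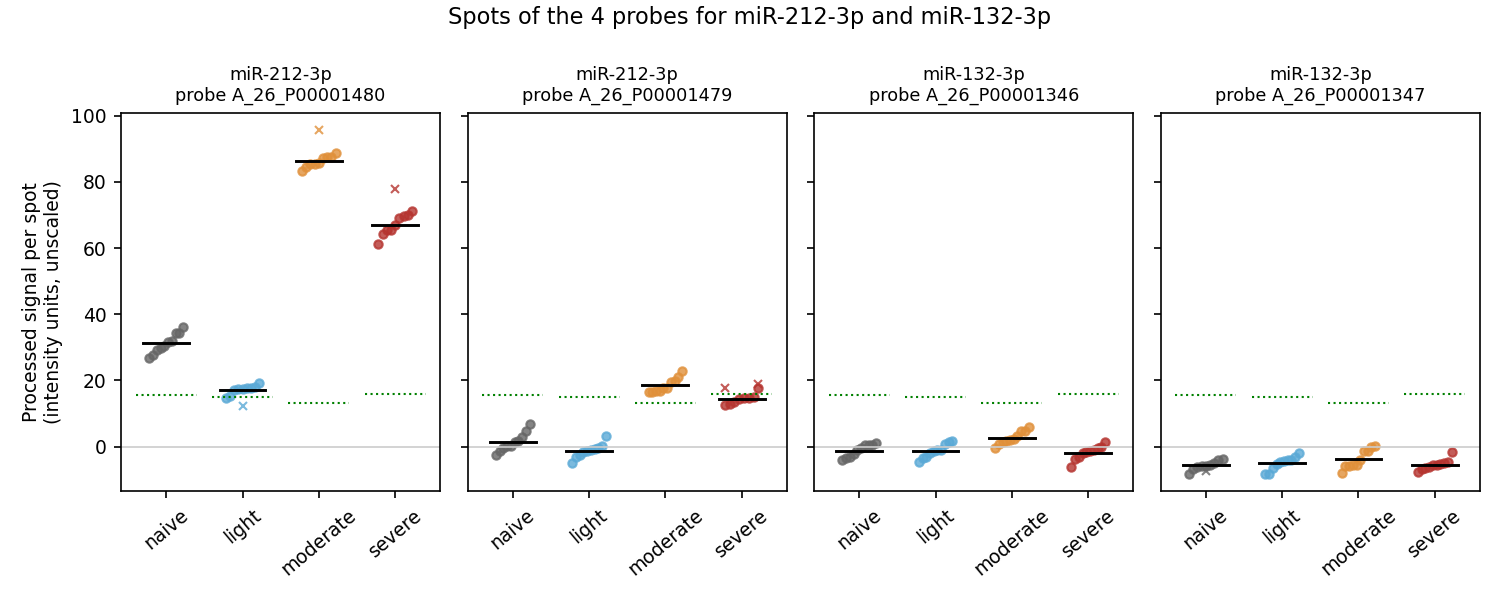
Unscaled processed signal (intensity units) of every spot of the 4 probes for miR-212-3p and miR-132-3p, by array. Points are spots, crosses are spots marked as outliers and left out, black lines are probe means, and green dotted lines are each array's floor, the lowest probe mean among probes that had a share of 0.5 or more of their spots well above background. Probe A_26_P00001480 of miR-212-3p reads 31.2 on naive against 86.2 on moderate and 67.1 on severe, whereas both miR-132-3p probes stay near 0.

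miR-132-3p, which shares the seed and the locus, gave no measurable signal. Its summed signal was −6.91 ± 0.764 on naive, −6.31 ± 0.927 on light, −1.19 ± 1.09 on moderate and −7.32 ± 0.842 on severe. None of its spots was well above background on any array, and the floors were 15.6, 15.1, 13.1 and 16.0 units. It has no log2 value and no fold for any comparison. For scale, the 537 miRNAs detected on no array had medians of −15.3 (naive), −11.5 (light), −12.5 (moderate) and −12.5 (severe), and miR-132-3p lay above 80.3% to 89.9% of them.

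Its highest reading came on the moderate array. There probe A_26_P00001346 read 2.57 ± 0.614, and 4 of its 10 spots were positive and significant by the software's flag. The same probe read −1.19 ± 0.608 on naive, −1.26 ± 0.662 on light and −1.83 ± 0.677 on severe, with 0 such spots on each. Its spots on the moderate array, from −0.476 to 5.81, overlapped those of the naive array, from −4.06 to 1.11. Probe A_26_P00001347 stayed between −5.72 and −3.76 on the 4 arrays. The array therefore sets only a bound: a miR-132-3p signal below the floor could not be measured at this brightness.

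The opposite arms were not detected either. miR-212-5p, cut from the same hairpin as miR-212-3p, had sums of −10.1 on naive, −10.0 on light, −11.5 on moderate and −8.52 on severe. miR-132-5p had −9.88, −4.72, −7.22 and −6.97 in the same order. None of the spots of these 2 miRNAs was well above background. Of the 4 mature products of the locus, 1 was measured in these exosome samples.

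On the light array, taken at day 35, miR-212-3p lay 0.13 ± 0.09 below naive on the log2 scale (−0.13, or 1.10-fold). The spread between single spots of these arrays, carried through to the difference, was 0.29, so the difference is within spot noise. Of 117 miRNAs measured on both arrays, 1.71% were higher by 2-fold or more and 0.855% were lower by as much, and miR-212-3p was in neither set. That split of 2 and 1 was 1 and 1 under quantile normalization, 1 and 5 under median scaling, 0 and 32 when unscaled, and 0 and 33 when scaled to the labelling spike-ins, RNAs added in known amount before labelling. The median of all 117 was 0.27, which puts miR-212-3p 0.40 below it, at place 90 from the top. The bright probe alone gave 0.04 ± 0.06. The summed light signal of 15.9 ± 0.812 lay within its spot error of the floor of 15.1, and the bright probe read 17.2. A lower level could hardly have been measured.

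On the moderate array, taken at day 49, miR-212-3p was 2.25-fold above naive (log2 1.17 ± 0.06). It was among the 8 of 126 miRNAs (6.35%) that were higher by 2-fold or more, at place 6 of 126, where 0.794% were lower by as much. This contrast chose the pair, so the count is a description. The split of 8 higher and 1 lower was 6 and 4 under median scaling, 5 and 7 under quantile normalization, 36 and 0 when unscaled, and 57 and 0 when scaled to the spike-ins. The median of all 126 was 0.22, and the difference from that median was 0.94. The miRNAs just above the 2-fold line were miR-497-5p at 1.09 and miR-10a-5p at 1.13, followed by miR-212-3p itself. Those just below it were miR-27a-3p at 0.89, miR-195-5p at 0.85 and miR-191a-3p at 0.84. The bright probe alone gave 1.93-fold (log2 0.95 ± 0.05), under the line. Normexp, another background correction, gave a log2 difference of 0.085 with its offset of 50 units, and 0.60 without it. The position of miR-212-3p above 2-fold on this array therefore depends on adding the dim probe and on the background correction.

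On the severe array, also of day 49, miR-212-3p was 4.01-fold above naive (log2 2.01 ± 0.06). It was among the 24 of 109 miRNAs (22.0%) that were higher by 2-fold or more, at place 13 of 109, where 19.3% were lower by as much. The split was 24 higher and 21 lower, and 17 and 42 without scaling. A difference past 2-fold was thus common on the severe array, and this contrast too was in view when the pair was chosen. The median of all 109 was −0.11, and miR-212-3p lay 2.12 above it. The miRNAs just above the 2-fold line were miR-130a-3p and miR-327, at log2 1.0 and 1.01, and miR-21-5p at 1.06. Those just below were miR-27b-3p at 0.93, miR-362-3p at 0.88 and miR-27a-3p at 0.84. The bright probe alone gave 3.45-fold (log2 1.78 ± 0.05). Normexp gave 0.83 with its offset and 1.44 without it.

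Both comparisons share the naive array, whose miR-212-3p signal of 32.6 units is the denominator of each. Of 109 miRNAs measured on the naive, moderate and severe arrays, 2 were at least 2-fold above naive on both day 49 arrays: miR-212-3p and miR-10a-5p. The count rests on the same values that chose miR-212-3p, and it changes with the processing. On moderate miR-10a-5p was as low as log2 0.94 under another scaling, and miR-212-3p was at 0.95 with the bright probe alone.

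The severe and moderate arrays are of the same day. miR-212-3p was 1.79-fold higher on severe (log2 0.84 ± 0.02), below the 2-fold line that 22.6% of 115 miRNAs passed upward and 20.0% downward (13 and 78 miRNAs without scaling, 20 and 62 with labelling spike-ins, against 26 and 23). It stood at place 29 of 115, 1.25 above the median of −0.41. The bright probe alone gave log2 0.84 ± 0.02. The order of these 2 arrays depended on the scaling. Without scaling the severe array was lower, at 0.778 times the moderate signal (log2 −0.36), and with the labelling spike-ins the difference was 0.16.

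**Figure D2:**
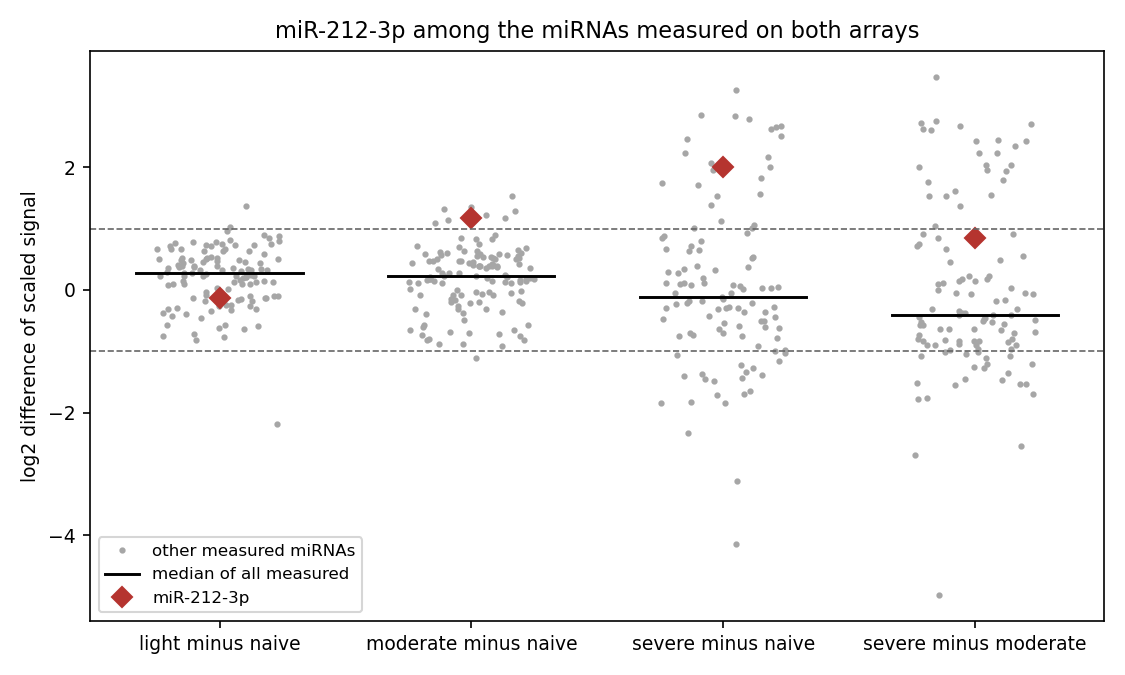
Log2 difference of scaled signal for the miRNAs measured on both arrays of each comparison (grey points, 117, 126, 109 and 115 from left to right), with their median (black line), miR-212-3p (red diamond) and the 2-fold lines (dashed). miR-212-3p lies at −0.13 for light, 1.17 for moderate and 2.01 for severe against naive, and at 0.84 for severe against moderate.

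**Figure D3:**
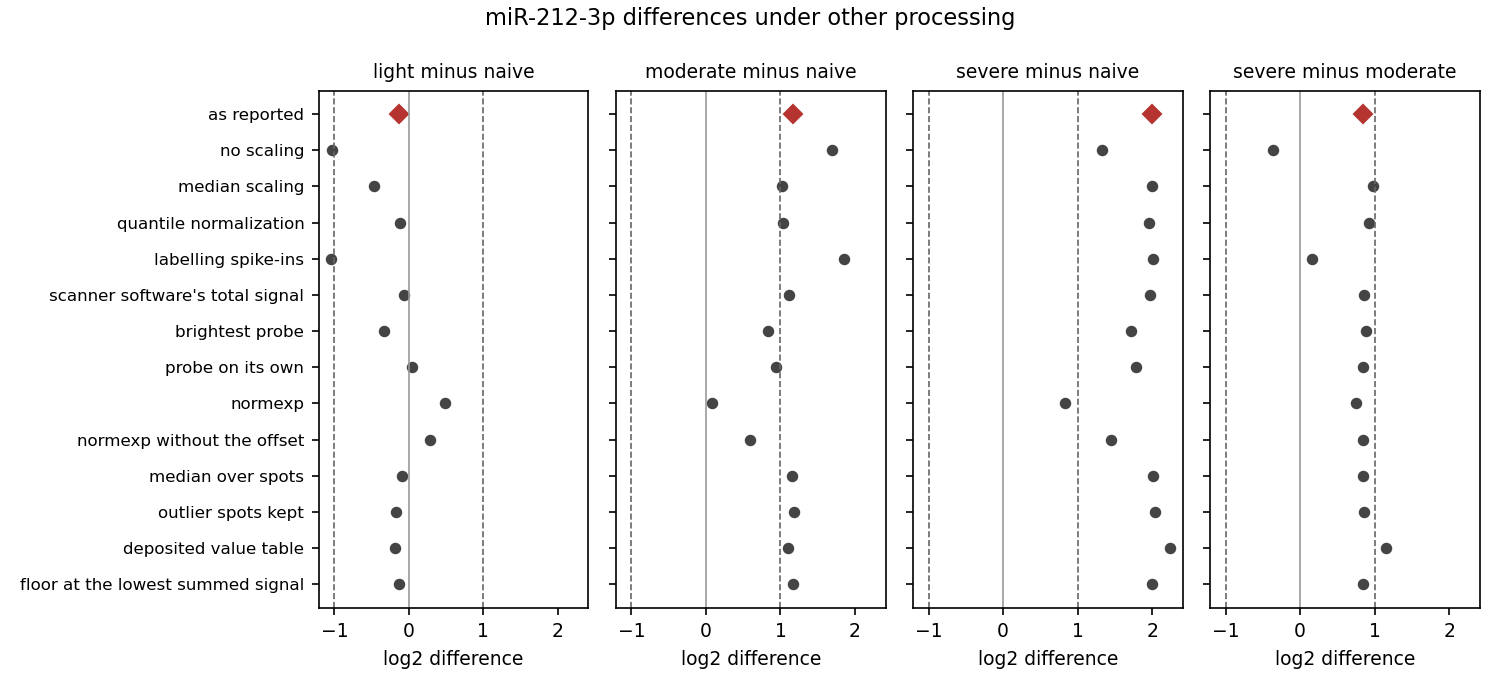
Log2 difference of miR-212-3p in the 4 comparisons as reported (red diamond) and under 13 other settings of scaling, probe choice and background correction (grey points), with 0 and the 2-fold lines marked. The difference of severe from naive lies above 0 throughout, from 0.83 to 2.25, and that of severe from moderate falls to −0.36 without scaling.

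The miRNAs whose pattern was most like that of miR-212-3p were sought among the other 103 measured on all 4 arrays. Likeness was the root mean square (RMS) gap between their log2 differences from naive on the light, moderate and severe arrays, over 3 differences that share the naive array. The median gap was 1.41 and the range 0.39 to 3.57. The nearest was miR-10a-5p, a miRNA of the Hox gene clusters, with a gap of 0.39. Its signals were 53.2 (naive), 22.8 (light), 167 (moderate) and 210 (severe) units, and its log2 differences from naive were −0.32, 1.13 and 2.66. It is the one nearest miRNA that also passed 2-fold on both day 49 arrays.

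The next 4 were all lower than miR-212-3p on the moderate array, and miR-29c-3p was further from it on the severe array than on the moderate one. miR-29c-3p, a regulator of collagen genes, had a gap of 0.55, with log2 differences from naive of 0.35, 0.63 and 1.39 on light, moderate and severe. miR-99a-5p, which targets Mtor, had a gap of 0.56, with −0.58, 0.47 and 2.51. miR-877 had a gap of 0.62, with −0.46, 0.19 and 1.71. miR-370-3p, of the imprinted Dlk1-Dio3 cluster, had a gap of 0.68, with −0.15, −0.0016 and 1.95. The 5 were picked on differences that include severe against naive, so their place there is a description. All 5 were above naive on the severe array with each of the 5 scalings. The sign of miR-29c-3p on the light array and of miR-370-3p on the moderate array changed with the scaling. Of these, the 4 with an entry in the sequence table carry other seeds than miR-212-3p.

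**Figure D4:**
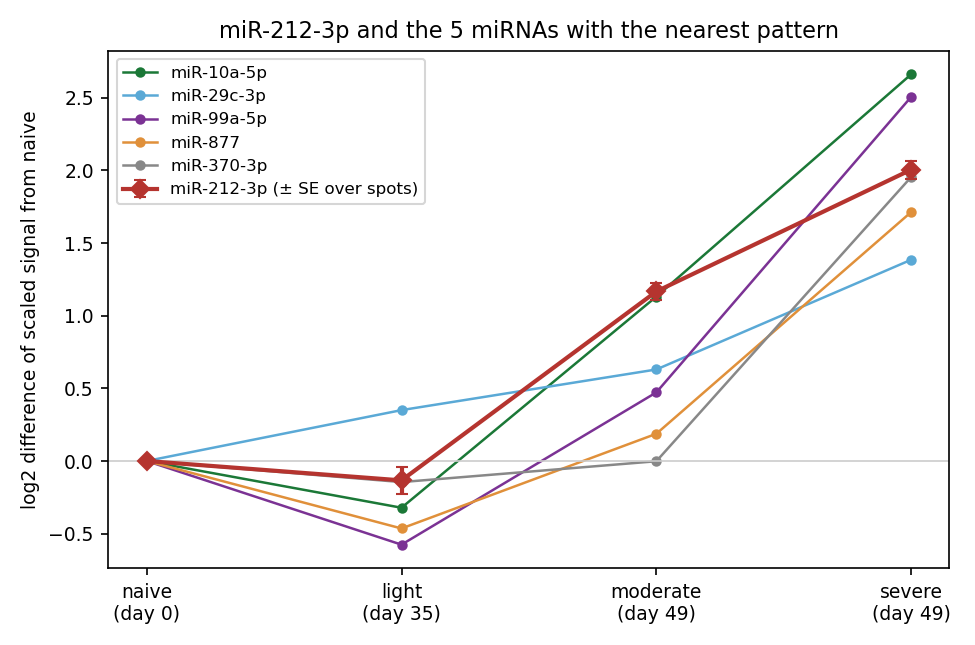
Log2 difference of scaled signal from naive on the light, moderate and severe arrays for miR-212-3p (red, ± SE over spots) and the 5 miRNAs with the smallest RMS gap to it. Lines join separate arrays and the moderate and severe arrays are of the same day; miR-212-3p and miR-10a-5p stand together on the moderate array, at 1.17 and 1.13, and the other 4 lie at 0.63 or less.

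miRNAs of the settings in which the pair is known were set beside it. Of 12 neuron-enriched or activity-regulated miRNAs on the array, 9 were detected on none of the 4 arrays, among them the neuronal miR-124-3p, miR-9a-5p and miR-137-3p. miR-128-3p was bright on all arrays, with 1417, 692, 2307 and 541 units on naive, light, moderate and severe, and its log2 differences from naive were −0.13, 0.18 and −0.71. miR-134-5p, an activity-regulated dendritic miRNA, was measured on the severe array alone, at 27.6 units. miR-338-3p was measured on the moderate array alone, at 32.4 units. miR-128-3p was the 1 member measured together with naive, and it passed 2-fold on none of the other arrays, where 1.71% (light), 6.35% (moderate) and 22.0% (severe) of all miRNAs were higher by that much. Unscaled, it was lower past 2-fold on light and severe, at −1.03 and −1.39, and with spike-ins on light, at −1.04. Of all miRNAs, 32 of 117 on light and 42 of 109 on severe were lower by as much unscaled. With spike-ins it was 33 of 117 on light.

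Of 4 miRNAs induced in inflammation, 3 were measured on naive, light and moderate and 2 on severe. None passed 2-fold on light or moderate, where the list medians were 0.63 and 0.38 against 0.27 and 0.22 over all miRNAs. On moderate 2 of 3 were higher with spike-ins, beside 57 of all 126 miRNAs. Unscaled it was 1 of 3, beside 36 of 126. On severe 1 of 2 passed, miR-21-5p at 1.06, and miR-146a-5p, a brake on innate signalling, stood at −0.44, beside 22.0% of all miRNAs that were higher. With quantile normalization 0 of 2 passed, and unscaled 0 were higher and 1 lower. Over all 109 miRNAs, 22 were higher and 25 lower with quantile normalization, and 17 and 42 when unscaled. Of 7 endothelial and angiogenic miRNAs, 4 were measured with naive on light and moderate and 3 on severe. None passed 2-fold on light or moderate, with medians of 0.29 and 0.47, and 1 of 3 did on severe, miR-130a-3p at 1.0; its median was 0.28 against −0.11 over all, of which 22.0% were higher. On moderate 3 of 4 were higher with spike-ins and 1 of 4 when unscaled, and on light 1 of 4 was lower under each of these. Over all miRNAs, 57 and 36 of 126 were higher on moderate, and 33 and 32 of 117 lower on light. On severe 0 of 3 were higher with median scaling, quantile normalization or no scaling, beside 23, 22 and 17 of all 109. There 1 of 3 was lower with quantile normalization and when unscaled, beside 25 and 42 of all 109. miR-126a-3p, the leading endothelial miRNA, stood at −0.64, −0.08 and −0.98.

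Markers of other cells moved on the same arrays as miR-212-3p, and not in 1 direction. The stromal list (4 miRNAs, of which miR-145-5p was detected nowhere) had 3 of 3 measured members at least 2-fold above naive on moderate, with a summed scaled level of 0.895 against 0.361, where 6.35% of all miRNAs were higher by that much. With quantile normalization it was 2 of 3, beside 5 of all 126. On severe its level was 0.134, with 0 of 2 higher and 1 lower, where 22.0% of all miRNAs were higher and 19.3% lower. That sum leaves out miR-199a-3p, which at 15.2 units lay just under the severe floor of 16.0. The muscle list (4 miRNAs) had a summed level of 1.87 on naive, 1.18 on light, 3.60 on moderate and 0.0948 on severe, where 1 of its 4 members was measured. The leukocyte and platelet list (4 of 4 measured throughout) stood at 11.7, 16.3, 16.5 and 6.30. Most of this sum was miR-223-3p, and the members differed on moderate. Against naive, miR-223-3p stood there at 0.63 and miR-142-5p at 0.16, but miR-142-3p at −0.88 and miR-150-5p at −0.57. The list median on moderate was −0.20, against 0.22 over all miRNAs. The red-cell list (3 or 4 of 4 measured) stood at 52.6, 67.9, 57.8 and 41.3. Most of this sum was miR-451-5p, at 0.39, 0.14 and −0.30 against naive on light, moderate and severe. miR-16-5p stood at 0.23, 0.13 and −0.71, but miR-144-3p at 1.38, −0.19 and 1.82. miR-144-5p was measured on moderate and severe alone, at 13.5 and 38.2 units. The hepatocyte list (2 or 3 of 3 measured) stood at 2.21, 0.795, 1.53 and 2.42. The inflammation list stood at 3.36, 5.58, 4.41 and 6.39, and the endothelial list at 2.97, 4.53, 4.12 and 5.60. On scaled values, the sums of these 2 lists and of the hepatocyte list were highest on severe, as miR-212-3p was. Without scaling, miR-212-3p was highest on moderate (105 units). So were miR-21-5p (3675) and miR-130a-3p (3393), the brightest members of the inflammation and endothelial lists. In the hepatocyte list miR-122-5p was highest on naive (1123) and miR-192-5p on severe (588). Within each of these lists the scaled members did not move together. Against naive, severe had miR-192-5p at 1.56 and miR-122-5p at −0.75 in the hepatocyte list, where miR-122-3p was not measured. It had miR-21-5p at 1.06 and miR-146a-5p at −0.44, and miR-130a-3p at 1.0, miR-210-3p at 0.28 and miR-126a-3p at −0.98. On scaled values, none of the 7 lists followed the order of miR-212-3p over all 4 arrays, light, naive, moderate, severe. Without scaling the order of miR-212-3p was light, naive, severe, moderate. miR-21-5p (1778, 1969, 2551 and 3675 units) and miR-130a-3p (1457, 1724, 2155 and 3393) had that order too. miR-146a-5p, miR-210-3p and miR-126a-3p did not. miR-21-5p and miR-130a-3p made up most of the inflammation and endothelial sums, so the mismatch of these 2 lists rests on the scaling. The part of these lists in the differences of miR-212-3p was not tested.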

How the data were processed

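Per the file headers, the authors' deposited intensity values per spot were extracted from the scans by Agilent's Feature Extraction software, version 10.7.3.1 (protocol miRNA_107_Sep09); version 9.1 stands in the submitters' processing notes. The array grid carries rn4 annotation, not used here. They were background-subtracted with spatial detrending and not scaled between the 4 arrays. Per the labels' protocols, exosome RNA was extracted with a commercial kit and labelled with Cy3; the labelling text is a cRNA amplification meant for messenger RNA, and this mismatch was not resolved. The series' deposited value table holds the software's total intensity for 102 miRNAs, miR-212-3p among them, on a linear, unscaled scale (equal within 0.0424%); the choice of these is unexplained. Its column medians were 189 (naive), 107 (light), 304 (moderate) and 114 (severe).

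Outlier spots were dropped (386, 387, 386 and 525 per array), and 0 were saturated. Per probe, the mean of the processed signal was taken, and these means were added for each miRNA. The sum was scaled to the 75th percentile of the 111 miRNAs seen on every array before log2 was taken. A miRNA was measured where the scanner software detected it and it reached the floor, which gave 127, 118, 165 and 119 miRNAs. Named miRNAs are the pair, the other arms, the 5 nearest patterns, the 3 miRNAs on either side of the 2-fold line, and list members; lists were matched on the names the array uses, and miR-155-5p and miR-219a-5p were left out. The members, lists and rules were chosen with earlier results of these data known. Calculations used Python 3.11.15 with pandas 2.3.3, and R 4.3.3 with limma 3.58.1 for normexp, and were tested on simulated data. With 1 array per group no test was made, and the number of arrays limits the precision. Alternatives were other scalings, probe and spot summaries, background corrections and floors.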

Additional observations from a re-analysis of the deposited data

Results flagged for a closer look

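miR-212-3p lay on opposite sides of naive at the 2 times. The light array of day 35 was at log2 −0.13, while the moderate and severe arrays of day 49 were at 1.17 and 2.01. The difference between the times was not tested, since each group has 1 array and all share the naive array. The light value lies within the spot noise of 0.29, and its sign changed with the processing.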

How the results depend on the processing

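Over 13 other settings, miR-212-3p stayed above naive on the moderate array in 13 (log2 0.085 to 1.85, at least 2-fold in 9) and on the severe array in 13 (0.83 to 2.25, at least 2-fold in 12). Against moderate, the severe array was higher in 12 of 13. Among the 13, the setting with another floor leaves every difference unchanged by construction, so it is no check. A value counts as moved where it left the spread between spots. Without scaling the log2 differences were −1.04 for light, 1.68 for moderate and 1.32 for severe against naive, and −0.36 for severe against moderate. With labelling spike-ins they were −1.04 for light, 1.85 for moderate and 0.16 for severe against moderate. Median scaling gave −0.47 for light and 0.97 for severe against moderate, and quantile normalization gave 0.93 for the latter. The brightest probe gave 0.84 for moderate and 1.72 for severe against naive, and the bright probe on its own with the scaling unchanged gave 0.95 and 1.78. Normexp gave 0.49, 0.085 and 0.83 for light, moderate and severe against naive and 0.74 for severe against moderate. Without its offset of 50 units, a setting chosen after seeing the data, the values against naive were 0.28, 0.60 and 1.44. The deposited value table gave 2.25 for severe against naive and 1.15 for severe against moderate. The cause of these shifts was not tested. Counts of miRNAs past 2-fold, higher and lower together, were 3 for light, 9 for moderate and 45 for severe against naive, and 49 for severe against moderate. They became 32 and 36 for light and moderate and 91 for severe against moderate without scaling, 33, 57 and 82 with labelling spike-ins, and 6 for light with median scaling. The 75th percentile over all miRNAs was not run, because it was −0.739 units on the light array. For miR-132-3p 11 settings were run. Counting as measured required the software's detection, which no setting changes and which it lacked on all arrays. That it was measured under none of them was therefore fixed in advance. In 3 (the software's total signal and normexp with and without its offset) its values were above 0 on all arrays. No difference is given for it. The deposited value table has no entry for it. The dim probe of miR-212-3p has no difference from naive, where it lay below the floor, and other settings were not run for it. The summed 15.9 units on light, and the 17.2 units of the bright probe, lie near the floor of 15.1 and limit what a fall there could show. No paired analysis was possible because each group has 1 array.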
